A study of Mus musculus x Rattus norvegicus with 2 samples.

Results

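Motile cilia genes are described here as a set of 38 mouse genes chosen by symbol, of 80802 mouse and rat features in the count matrices: 5 regulators, and genes of the axoneme, its assembly and the rest of the cilium. They were read in ciliated barcodes, meaning mouse epithelial barcodes with at least 10 unique molecular identifiers (UMIs) in Ccdc153, Tmem212, Dynlrb2, Rsph1 and Tppp3 together. These 5 gate genes chose the barcodes, so their levels are given as a description, and the 33 members outside the gate carry the comparisons. The gate was passed by 78 of 2142 epithelial barcodes of the mutant library and by 44 of 953 of the control library.

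Lung of mouse-rat chimeric embryos at E20.5 was dissociated and profiled with droplet 3' libraries, 1 library per group. The mutant library was mouse lung formed in a rat host with the genotype Nkx2-1-/-, so that the host lacks the homeobox factor on which lung epithelial fate depends. The control library was chimeric lung formed in a wild-type rat host and held mouse and rat cells. The strains were C57BL/6 and SD in both groups, the number of embryos behind a library is not given here, and with a single library on each side no value has a replicate to check it.

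A motile cilium is built on a ring of microtubule doublets around a central pair. Dynein arms on the doublets slide them past each other, radial spokes and the nexin-dynein link control the sliding, and tektins and other proteins line the doublets from within. In the airway epithelium, multiciliated cells arise from progenitors in which Mcidas and Ccno drive the amplification of centrioles. Foxj1 and the Rfx factors then switch on the axoneme genes, and the beating cilia clear mucus.

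Kept barcodes numbered 8990 in the mutant and 9021 in the control library, with medians of 10356.5 and 8416 UMIs, and 4 mutant and 371 control barcodes held over 50000 UMIs. Only 47 barcode sequences occurred in both libraries, 0 of them ciliated. The matrices came from Cell Ranger 7.0.1 in the mutant and 6.0.1 in the control library per the file headers, and version 7 counts intronic reads by default. Short genes, here those with 10 kb of intron or less, took 47.3% of the UMIs of mutant and 61.9% of those of control ciliated barcodes, and 60.4% and 64.1% of those of mutant and control other epithelium. Counting software, depth and host genotype cannot be told apart as sources of a difference between the libraries.

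The ciliated barcodes of the libraries differed in depth and in other airway genes, as the following values show. Median depth was 22698.5 UMIs in mutant ciliated barcodes (746 to 49316) and 63136 in control ones (2326 to 175712), and 0 mutant and 24 control ones held over 50000 UMIs. The 5 secretory airway markers, all with a UMI in both libraries, summed to 994 counts per 1000000 mouse UMIs (CPM) in mutant barcodes and 10550 CPM in control ones, and the range over barcodes was 0 to 6372 CPM in the mutant and 0 to 30527 CPM in the control library. The secretoglobin Scgb3a2, an early marker of airway secretory cells, stood at 152 CPM in mutant and 8626 CPM in control ciliated barcodes. The 24 deep control barcodes had 11526 CPM of secretory markers and 2435 CPM of the 28 members outside the gate that are not regulators, while the 20 others had 4756 and 9100 CPM. The mutant barcodes had 16413 CPM of those 28 members. The part of depth and of secretory RNA in the differences below was not tested, so the log2 differences of members and lists are also given, singly or as a range or median of their group, for ciliated barcodes of at most 50000 UMIs, 78 in the mutant and 20 in the control library.

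Ciliated markers were found in the ciliated barcodes of both libraries, but those of the control library held more secretory than ciliated marker RNA. All 11 ciliated markers, which are themselves members outside the gate, had UMIs in ciliated barcodes, 6714 CPM in all in mutant ones against 12.4 CPM in mutant other epithelium, and 1781 CPM in control ones against 12.9 CPM in control other epithelium. The secretory markers given above, 994 CPM in mutant and 10550 CPM in control ciliated barcodes, were at 2672 CPM in mutant and 602 CPM in control other epithelium. All 8 epithelial markers were found too, with 4147 CPM in mutant and 5276 CPM in control ciliated barcodes. The 6 immune markers summed to 24.0 CPM in mutant and 2.90 CPM in control ciliated barcodes. Of these, Ptprc and C1qa, which mark leukocytes and macrophages, were at 0 in both libraries. Csf1r had a UMI in 17 of 78 mutant and 1 of 44 control ciliated barcodes, and Lyz2 in 11 and 2. Alveolar type 2 markers summed to 1721 CPM in the mutant and 189 CPM in the control ciliated barcodes, with a median barcode at 259 CPM in the mutant and 150 CPM in the control library and a highest one at 96011 and 2176 CPM. Red cell markers summed to 3168 and 77.7 CPM, with a median barcode at 40.2 CPM in the mutant and 69.6 CPM in the control library and a highest one at 218142 and 870 CPM. Median mitochondrial shares were 4.32% in mutant and 1.79% in control ciliated barcodes. The part of these in the differences was not tested.

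Ciliated barcodes made up 3.64% of mutant epithelial barcodes (exact 95% interval 2.89 to 4.52) and 4.62% of control ones (3.37 to 6.15). These shares were not compared, because a fixed number of UMIs is reached more easily in a deeper barcode and the gate genes themselves differed between the libraries. The summed gate genes had a median of 177 UMIs (10 to 428) in mutant and 84 UMIs (14 to 457) in control ciliated barcodes. With 10 to 19 gate UMIs, just inside the limit, there were 4 mutant and 8 control barcodes, and with 5 to 9, just outside it, 6 mutant and 20 control ones. A single cluster, led by Scgb3a2, Scgb1a1, Hp and cilia genes, held 76 of the 78 mutant and all 44 of the control ciliated barcodes, and also 79 mutant and 129 control airway barcodes below the gate. Outside the epithelium, 1 mutant mesenchymal barcode passed with Tmem212 UMIs alone and 4 control mesenchymal barcodes passed with Tppp3 UMIs alone, and these were left out. In other epithelial clusters, 1 mutant barcode passed with 10 Tppp3 UMIs alone and was kept, with 0 CPM of Foxj1 and of the 28 members outside the gate that are not regulators. Also kept was 1 mutant barcode with 12 gate UMIs and 261 CPM of those members.

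Within each library, cilia genes stood far above the rest of the epithelium. The 33 members outside the gate had a median log2 difference, ciliated minus other epithelium with 10 CPM added, of 5.29 in the mutant library, where all 16040 genes tested had a median of 0.10. In the control library the members' median was 3.03, and that of 15236 genes was 0.03. A gene was tested where the groups compared held at least 20 UMIs together. At least 8-fold higher were 30 of 33 members in the mutant library, where 2.94% of genes were, and 17 of 33 in the control library, where 0.427% were. With 10 CPM added, a gene at a low level in ciliated barcodes could not be counted here, however little other epithelium held. Control Dnah5, at 48.1 CPM in ciliated barcodes and 0.0674 CPM in other epithelium, had a log2 difference of 2.53 and was not counted. Control Spag16, at 29.99 and 0.0337 CPM, had 1.99. The lower control count and median therefore cannot show that members were less enriched there. At least 2-fold higher were all 33 members in the mutant library (15.2% of genes) and 31 in the control library (5.41%). Members share barcodes with the gate genes, so these counts describe how far the gate reaches and are not independent of it.

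**Figure D1:**
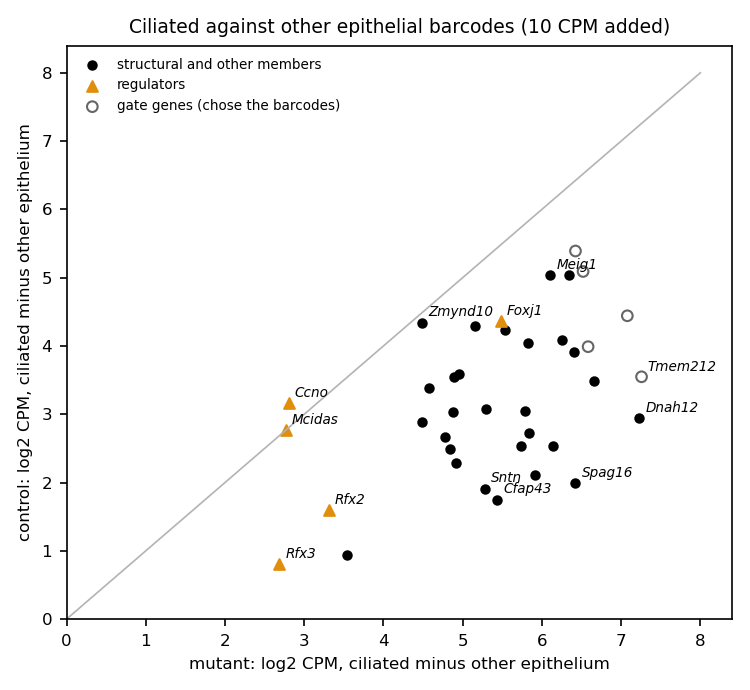
Log2 CPM difference of ciliated minus other epithelial barcodes for each of the 38 members, mutant on the x axis and control on the y axis, with 10 CPM added. The diagonal marks equal values; Ccno lies above it, at 2.80 in the mutant and 3.17 in the control library, and Dnah12 lies farthest to the right among members outside the gate, at 7.23 in the mutant and 2.95 in the control library.

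Other epithelium held little of most members. Dnah5 was at 0.394 CPM there in the mutant and 0.0674 CPM in the control library, and Foxj1 at 0.355 CPM in the mutant and 4.82 CPM in the control library. Rfx3 and Dnah11 were also found outside the ciliated barcodes, and are the points nearest the origin in the plot of ciliated against other epithelium. Rfx3, which also serves non-motile cilia, was at 80.3 CPM in mutant and 23.2 CPM in control other epithelium, and at 75.4 CPM in mutant and 10.9 CPM in control endothelial barcodes. Dnah11, an outer arm dynein heavy chain, was at 28.1 CPM in mutant and 6.26 CPM in control other epithelium. Rfx3 and Dnah11 are long genes, with 238 and 307 kb of intron. Their log2 differences in other epithelium, mutant minus control, were 1.44 and 1.23. Over all genes tested with at least 200 kb of intron the median there was 0.69. Of 29 members outside the gate tested in other epithelium, those 2 were at least 2-fold higher in the mutant library (6.39% of 17289 genes). At least 2-fold lower were 0 (7.25% of genes), and the median log2 difference was -0.01. Only Rfx3 of them had 10 CPM or more in control other epithelium. With 10 CPM added the others could not be called lower, and their differences are pulled towards 0. Foxj1 thus stood at -0.52, and Mlf1, at 1.81 CPM in the mutant and 9.70 CPM in the control library, at -0.74. Set against the non-ciliated barcodes of the airway cluster alone, the members' median log2 difference was 5.09 in the mutant and 2.40 in the control library. The added 10 CPM lowers these medians too, and more so at the lower member levels of control ciliated barcodes.

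Between the libraries, most members had a higher level in mutant than in control ciliated barcodes. The median log2 difference, mutant minus control, was 2.06 over the 33 members and 0.02 over all 12169 genes tested. At least 2-fold higher were 28 of 33, where 16.4% of genes were, and 0 were at least 2-fold lower, where 9.31% were. The 5 that stayed within 2-fold were Foxj1, Mcidas, Ccno, Zmynd10 and Tekt1. In ciliated barcodes of at most 50000 UMIs the median was 0.70 over the members and 0.03 over 10245 genes, with 14 of 33 at least 2-fold higher (15.1% of genes) and 1, Ccno, at least 2-fold lower (7.07%).

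**Figure D2:**
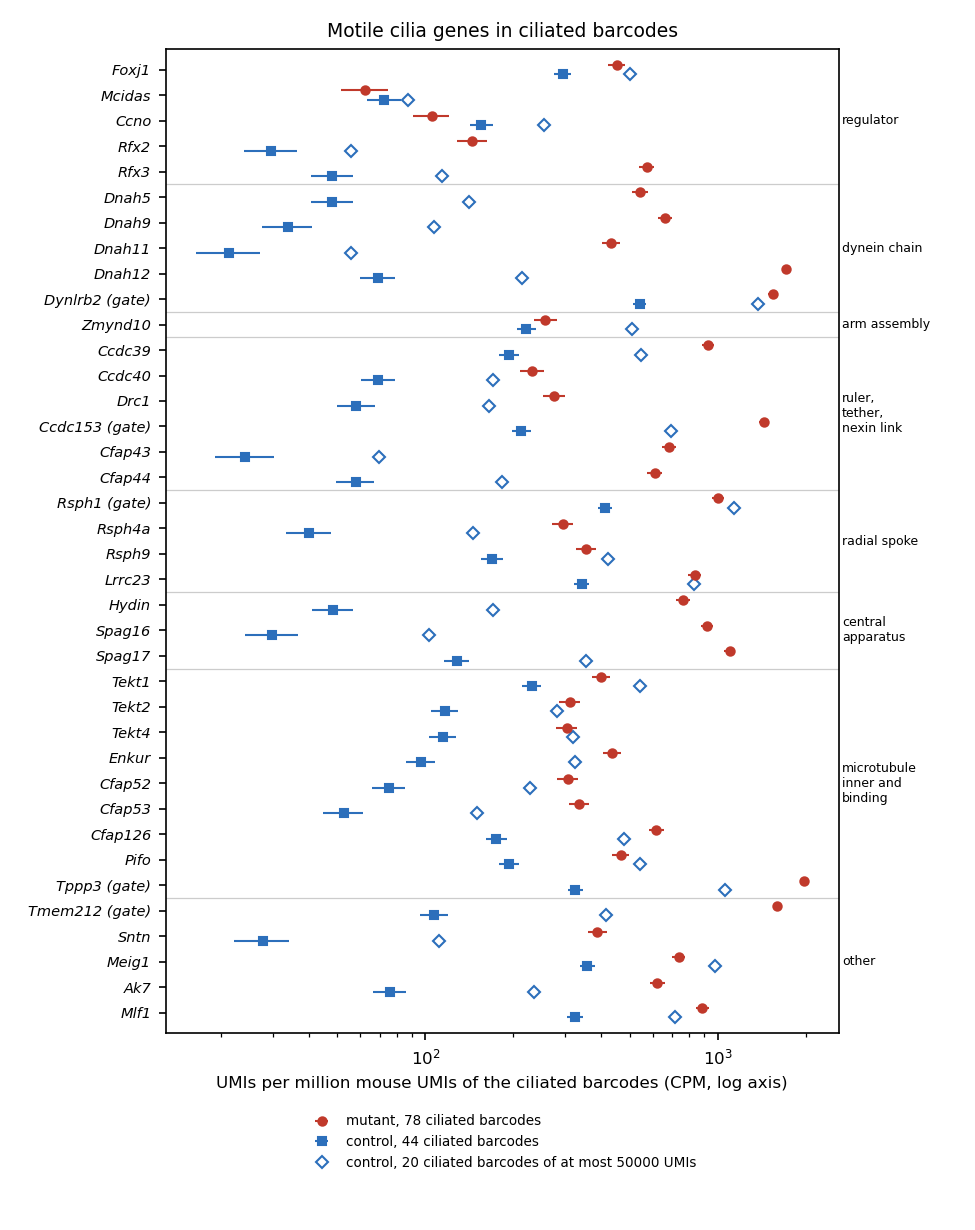
Level of each member in ciliated barcodes, in CPM on a log axis, ordered by role; filled circles are the mutant library (78 barcodes), filled squares the control library (44), open diamonds the 20 control barcodes of at most 50000 UMIs, and bars exact 95% Poisson intervals. The open diamonds lie to the right of the squares for all 38 genes, and past the mutant circles for Foxj1, Mcidas, Ccno, Zmynd10, Tekt1, Tekt4, Rsph9, Rsph1, Pifo and Meig1.

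Among the regulators, Foxj1, Mcidas and Ccno were within 2-fold between the libraries over all ciliated barcodes, and both Rfx genes were higher in the mutant library. Foxj1 (ENSMUSG00000034227; mm10 chromosome 11, 116330704 to 116335399, minus strand), the forkhead factor that drives motile ciliogenesis, was at 452 CPM in mutant ciliated barcodes (exact 95% Poisson interval 422 to 484) and 295 CPM in control ones (276 to 315). The mutant over control ratio was 1.53 (95% conditional interval 1.39 to 1.68). With the limit of 50000 UMIs it was 452 CPM in the mutant and 503 CPM in the control library, and the ratio interval, 0.775 to 1.05, included equality. A Foxj1 UMI was found in 76 of 78 mutant and 43 of 44 control ciliated barcodes, against 0.436% of mutant and 4.62% of control other epithelial barcodes, whose median depths were 11565.5 and 13200 UMIs. The level of Foxj1 thus differed less between the libraries than that of most axoneme genes, and its log2 difference was 0.60 with the deep control barcodes and -0.15 without them.

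Mcidas and Ccno are neighbours on the plus strand of mm10 chromosome 13, at 112993845 to 113000394 and 112987802 to 112990777. Mcidas, the coiled-coil coactivator at the head of the multiciliated program, was at 62.4 CPM in mutant (51.6 to 74.8) and 72.2 CPM in control ciliated barcodes (63.1 to 82.3), with a ratio of 0.864 whose interval, 0.685 to 1.09, included equality. Ccno, a cyclin-like protein needed to make many centrioles, was at 105 CPM in mutant (90.9 to 121) and 155 CPM in control ones (142 to 170), a ratio of 0.676 (0.570 to 0.799). Up to 50000 UMIs, the log2 difference was -0.42 for Mcidas and -1.20 for Ccno. Ccno was thus lower in the mutant library in both readings. The ratio interval of Mcidas, 0.494 to 1.06 in the shallower barcodes, included equality in both. These readings make no allowance for intron length. Ccno and Mcidas have 0.421 and 4.17 kb of intron, and all genes tested with at most 10 kb had a median log2 difference of -0.36. With the median of its intron bin subtracted, Ccno was at -0.19 and Mcidas at 0.21. Up to 50000 UMIs these values were -0.82 for Ccno and 0.002 for Mcidas.

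Rfx2 and Rfx3 are winged-helix factors that bind the promoters of ciliary genes with Foxj1. Rfx2 (chromosome 17) was at 145 CPM in mutant and 29.7 CPM in control ciliated barcodes, a ratio of 4.87 (3.83 to 6.24). Rfx3 (chromosome 19) was at 571 CPM in the mutant and 48.1 CPM in the control library, a ratio of 11.9 (10.0 to 14.2). Both are long genes, with 47.8 and 238 kb of intron. Their log2 differences in barcodes of at most 50000 UMIs were 1.23 and 2.23.

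The early regulators and the structural genes were distributed differently over barcodes in the libraries. Mcidas had a UMI in 13 of 78 mutant and 34 of 44 control ciliated barcodes, and Ccno in 33 and 40. With each barcode thinned to 10000 UMIs, which left 77 mutant and 40 control barcodes, Mcidas was found in 11 and 15, Ccno in 23 and 27, and Tmem212, a gate gene, in 66 and 13. A UMI of Mcidas or Ccno with none of Tmem212 was found in 7 of 78 mutant (8.97%; 3.68 to 17.6) and 22 of 44 control barcodes (50%; 34.6 to 65.4) at full depth, and in 9 of 77 mutant (11.7%; 5.49 to 21.0) and 23 of 40 control barcodes (57.5%; 40.9 to 73.0) after thinning. Tmem212 with neither was found in 42 of 78 mutant (53.8%; 42.2 to 65.2) and 3 of 44 control barcodes (6.82%; 1.43 to 18.7) at full depth, and in 52 of 77 mutant (67.5%; 55.9 to 77.8) and 6 of 40 control barcodes (15%; 5.71 to 29.8) after thinning. In other epithelium Mcidas had a UMI in 0.775% of mutant and 3.19% of control barcodes, Ccno in 7.07% and 13.3%, and Tmem212 in 0.533% and 0.110%. Tmem212 helped to choose these barcodes and the combinations were chosen after seeing them, so they are a description.

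**Figure D3:**
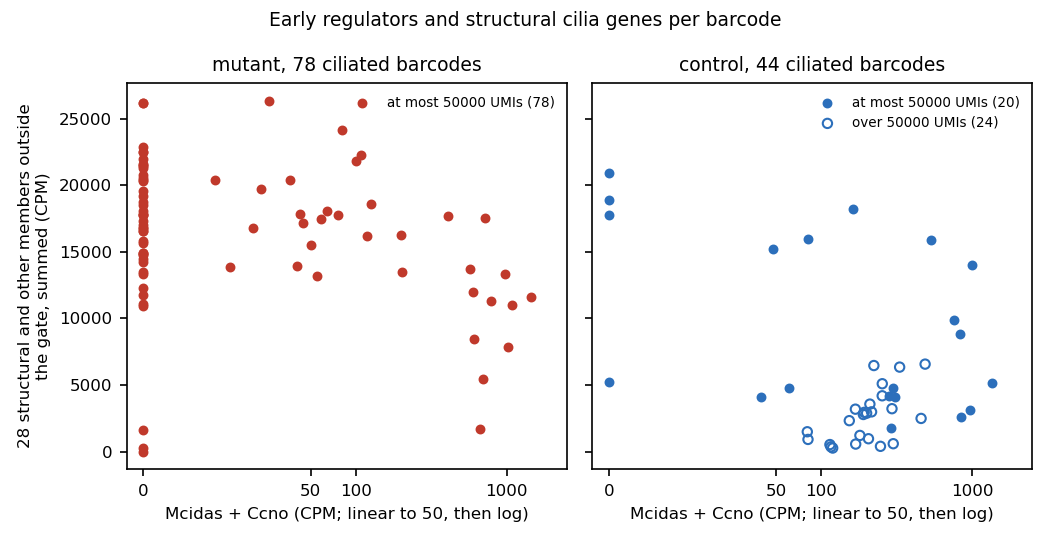
Each point is a ciliated barcode, with Mcidas and Ccno summed on the x axis (CPM, linear to 50 and log above) and the 28 members outside the gate that are not regulators summed on the y axis (CPM); mutant left, control right, open circles over 50000 UMIs. The median barcode had 0 CPM of Mcidas and Ccno and 16911 CPM of the 28 members in the mutant library, and 207 and 3818 CPM in the control library.

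Below the gate, 3 of 2064 mutant and 25 of 909 control epithelial barcodes held at least 3 UMIs of Mcidas and Ccno, and 0 mutant and 12 control ones at least 3 UMIs of Foxj1. All 12 of those lay in the airway cluster, so the gate left out some control barcodes with regulator RNA and few gate UMIs.

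The dynein heavy chains, the motor subunits of the arms, had some of the highest ratios. Dnah12, an inner arm heavy chain, was at 1716 CPM in mutant and 68.7 CPM in control ciliated barcodes, 25.0-fold higher (21.7 to 28.8). The outer arm chain Dnah5 was at 543 CPM in the mutant and 48.1 CPM in the control library. Its partners Dnah9 and Dnah11 were at 663 and 432 CPM in the mutant library and at 33.9 and 21.3 CPM in the control library. All 4 were at least 8-fold higher in the mutant library, where 132 of 12169 genes tested were. Their log2 differences were 3.25 to 4.45, and 1.87 to 2.94 in barcodes of at most 50000 UMIs. These 4 are long genes, with 186 to 321 kb of intron. With the median of their intron bin subtracted they were at 1.92 to 3.67, and at 0.49 to 2.11 up to 50000 UMIs. Dynlrb2, a light chain and gate gene, was at 1546 CPM in the mutant and 541 CPM in the control library, and its log2 difference was 0.16 in barcodes of at most 50000 UMIs.

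Zmynd10, a cytoplasmic factor that helps assemble dynein arms, had a lower mutant over control ratio than the heavy chains. The other arm assembly genes are given with the lists below. It was at 257 CPM in mutant (235 to 281) and 222 CPM in control ciliated barcodes (206 to 239), a ratio of 1.16 (1.03 to 1.30). In barcodes of at most 50000 UMIs it was lower in the mutant library, at 257 CPM against 510 CPM in the control library, a log2 difference of -0.96. Zmynd10 is a short gene, with 1.89 kb of intron. With the median of its intron bin subtracted it was at 0.53, and at -0.57 up to 50000 UMIs.

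The genes of the ruler, the tether and the nexin link were all higher in the mutant library. Ccdc39 and Ccdc40, the rulers that set the repeat length along the doublet in Chlamydomonas, were at 927 and 231 CPM in mutant ciliated barcodes and at 193 and 69.0 CPM in control ones. Drc1, a scaffold of the nexin-dynein link, was at 275 CPM in the mutant and 58.1 CPM in the control library. Cfap43 and Cfap44, which tether the head of an inner arm dynein in Tetrahymena, were at 683 and 609 CPM in the mutant library and at 24.2 and 57.7 CPM in the control library, and the ratio of Cfap43, 28.2 (22.4 to 36.1), was the second highest of all members. Ccdc153, a gate gene, was at 1438 CPM in the mutant and 213 CPM in the control library (log2 difference 2.70, and 1.04 up to 50000 UMIs). In barcodes of at most 50000 UMIs Cfap43 had the largest log2 difference of all members, 3.13, and Ccdc40 the smallest of this group, 0.42.

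Radial spoke genes split by member. Rsph4a, a spoke head protein, was at 296 CPM in mutant and 40.0 CPM in control ciliated barcodes, 7.39-fold higher (6.07 to 9.05), and its log2 difference was 0.98 in barcodes of at most 50000 UMIs. Rsph9, also of the spoke head, was at 355 CPM in the mutant and 169 CPM in the control library, and Lrrc23, of the spoke, at 834 and 343 CPM. Their log2 differences of 1.03 and 1.26 were -0.25 and 0.01 in barcodes of at most 50000 UMIs. The gate gene Rsph1 went the same way, at 1005 CPM in the mutant and 412 CPM in the control library, with a log2 difference of -0.18 in the shallower barcodes.

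The 3 central apparatus genes were at least 8-fold higher in the mutant library, where 132 of 12169 genes tested were. Spag16 had the highest ratio of all members, 30.6 (24.9 to 38.2), at 919 CPM in mutant and 29.99 CPM in control ciliated barcodes. Hydin was at 761 CPM in the mutant and 48.4 CPM in the control library, and Spag17 at 1100 and 128 CPM. In barcodes of at most 50000 UMIs the log2 differences of Spag16, Hydin and Spag17 were 3.04, 2.10 and 1.60. All 3 are long genes. With the median of their intron bin subtracted they were at 3.21, 2.40 and 1.68, and at 1.66, 0.72 and 0.22 up to 50000 UMIs. Spag16 is also the member with the most intron, 891 kb (mm10 chromosome 1, 69826970 to 70725132, plus strand).

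Genes of the microtubule lumen and wall differed less than the dynein chains. Tektins are filament proteins inside the doublet: Tekt1 was at 400 CPM in mutant and 232 CPM in control ciliated barcodes, Tekt2 at 312 and 116 CPM, and Tekt4 at 305 and 115 CPM. Cfap52 and Cfap53, inner proteins, were at 307 and 336 CPM in the mutant library and at 74.8 and 52.6 CPM in the control library. Enkur was at 435 CPM in the mutant and 96.8 CPM in the control library, Cfap126 at 617 and 175 CPM, and Pifo at 466 and 193 CPM. The 8 members of this group outside the gate had log2 differences of 0.76 to 2.47. At least 2-fold higher in the mutant library were 7, where 16.4% of all genes were. In barcodes of at most 50000 UMIs they ran from -0.43 to 1.11, and Tekt1, Tekt4 and Pifo were below 0. There 1 of 8, Cfap53, was at least 2-fold higher, where 15.1% of all genes were. The gate gene Tppp3, a tubulin-binding protein, was at 1973 CPM in the mutant and 326 CPM in the control library (2.56, and 0.89 up to 50000 UMIs, as log2 differences).

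The remaining members were higher in the mutant library too. Sntn encodes sentan, a protein of the ciliary tip, and was at 388 CPM in mutant and 27.7 CPM in control ciliated barcodes, 13.98-fold higher (11.2 to 17.7). A Sntn UMI was found in 58 of 78 mutant and 12 of 44 control barcodes, and after thinning to 10000 UMIs in 50 of 77 and 8 of 40. Ak7, an adenylate kinase, was at 622 CPM in the mutant and 75.5 CPM in the control library, Mlf1 at 888 and 326 CPM, and Meig1 at 736 and 358 CPM. In barcodes of at most 50000 UMIs the log2 differences were 1.71 for Sntn, 1.37 for Ak7, 0.30 for Mlf1 and -0.41 for Meig1. Tmem212, a gate gene, was at 1599 CPM in the mutant and 107 CPM in the control library (log2 difference 3.78, and 1.92 up to 50000 UMIs).

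Intron length went with the size of these differences. Across the 33 members the Spearman correlation of the log2 difference with summed intron length was 0.819, and across 12162 genes it was 0.443, both as descriptions of genes within a pair of libraries that also differ in counting software. Members with at most 10 kb of intron had a median log2 difference of 0.60 (7 members), those with over 10 to 50 kb 1.61 (13 members) and those with over 50 kb 3.32 (13 members). Over all genes tested the medians of the same classes were -0.36, -0.04 and 0.68. The members' medians stood above those of all genes in each class, and the longer classes stood higher in both. Up to 50000 UMIs, the members' medians were -0.15, 0.36 and 2.10 by class, and those of all genes -0.39, -0.07 and 0.75.

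**Figure D4:**
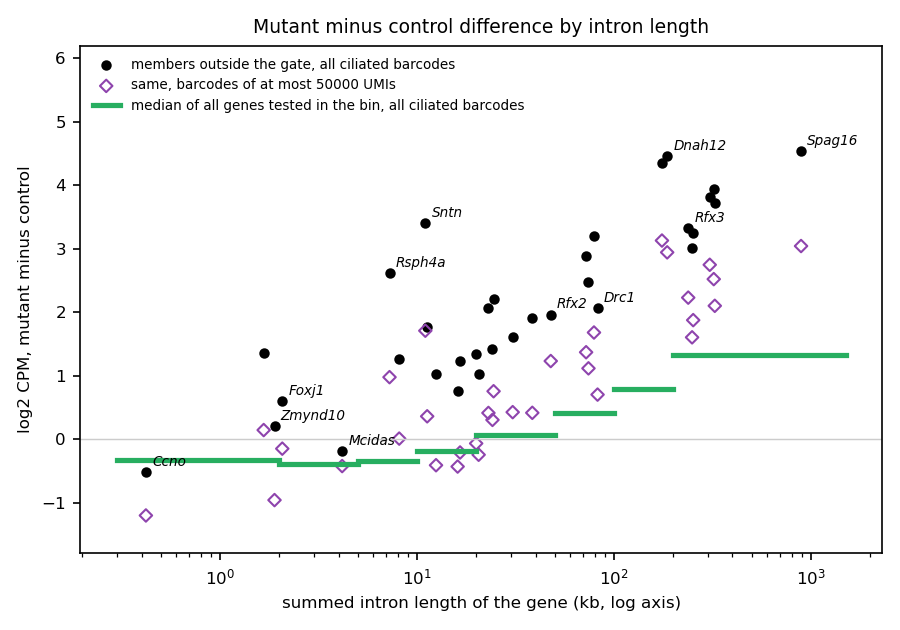
Log2 CPM difference, mutant minus control, against summed intron length (kb, log axis) for the 33 members outside the gate; filled circles use all ciliated barcodes, open diamonds those of at most 50000 UMIs, and green bars the median of all genes tested in each intron bin. Rsph4a and Sntn, with 7.26 and 11.0 kb of intron, stand at 2.61 and 3.40, above the other members of like length.

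Taken relative to the median of genes in the same intron bin, the members' median was 1.90, with 27 of 33 at least 2-fold higher (12.7% of genes) and 0 lower (7.94%). The relative log2 difference was 1.92 for Dnah5, 3.67 for Dnah12 and 3.21 for Spag16. Among the regulators it was 1.997 for Rfx3, 1.90 for Rfx2, 0.99 for Foxj1, 0.21 for Mcidas and -0.19 for Ccno. By class the relative medians were 0.99, 1.55 and 2.47, and the Spearman correlation with intron length was 0.597 over the members and 0.01 over all genes. With the limit of 50000 UMIs as well, the members' relative median was 0.49, and 9 of 33 were at least 2-fold higher (9.45% of 10239 genes) and 0 lower (5.15%). These 9 were Rfx2, Dnah9, Dnah11, Dnah12, Cfap43, Cfap44, Rsph4a, Spag16 and Sntn. Their relative log2 differences ran to 2.29, for Cfap43, and 2 of them, Sntn at 1.93 and Rsph4a at 1.34, have little intron.

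Other genes of the same machinery were read from 7 lists, which were chosen with earlier results of these data known. Of 84 genes tested, 59 were at least 2-fold higher and 2 lower in mutant ciliated barcodes, with a median log2 difference of 1.51, where 16.4% of all genes were higher and 9.31% lower. Up to 50000 UMIs 25 of 83 were higher and 1 lower, with a median of 0.57, where 15.1% of genes were higher and 7.07% lower. Dynein arm and docking genes had a median of 2.69 (15 of 15 higher), and further spoke, central apparatus and nexin link genes 2.42 (13 of 13). Microtubule inner protein genes had 1.41 (7 of 9), intraflagellar transport genes, which carry cargo along the cilium, 1.40 (12 of 17), and arm assembly genes 1.28 (6 of 8). In barcodes of at most 50000 UMIs the medians were 1.61 for dynein arm and docking genes (10 of 15 higher), 1.33 for spoke, central apparatus and nexin link genes (9 of 13), 0.35 for inner protein genes (0 of 9), 0.50 for intraflagellar transport genes (1 of 17) and 0.46 for arm assembly genes (2 of 8).

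The highest values in the lists were those of Dnah6 (3.88; 865 CPM in the mutant and 49.3 CPM in the control library), Dnah3 (3.67; 522 and 31.9 CPM), both inner arm heavy chains, and Cfap54 (3.64; 809 and 55.8 CPM), of the central apparatus. Their log2 differences up to 50000 UMIs were 2.36, 1.84 and 2.05. The multiciliogenesis regulators and deuterosome genes, which build the centrioles, had a median of 0.39, with 4 of 16 at least 2-fold higher and 0 lower, against 16.4% and 9.31% of all genes. Deup1, the deuterosome scaffold, was at 266 CPM in mutant and 233 CPM in control ciliated barcodes, Myb, a factor of the early program, at 305 and 180 CPM, and Plk4, the kinase that starts centriole duplication, at 71.5 and 75.5 CPM. Up to 50000 UMIs the direction of Deup1 turned, at 266 CPM in the mutant and 436 CPM in the control library (log2 difference -0.69), and the log2 difference was -0.01 for Myb and -0.38 for Plk4. Those at least 2-fold higher were Ulk4, Cdc20b, Ccdc78 and Trp73, at log2 differences of 1.51 to 2.75. With the limit of 50000 UMIs the list's median was 0.10, and 2 of 16 were at least 2-fold higher, where 15.1% of all genes were. These were Ulk4 at 1.498 and Cdc20b at 1.41, while Ccdc78 and Trp73 were both at 0.78.

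**Figure D5:**
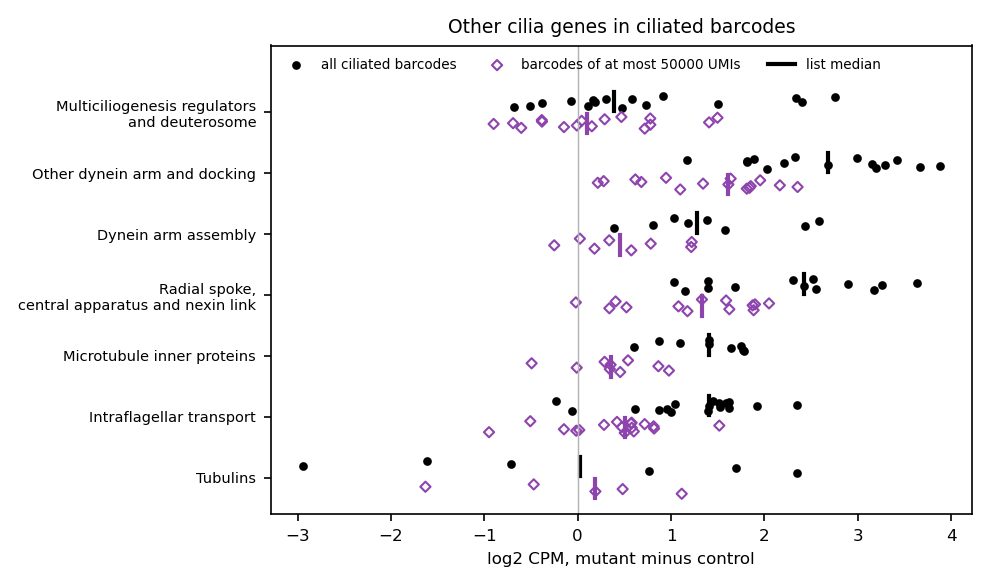
Log2 CPM difference, mutant minus control, for each gene tested of 7 lists of other cilia genes; filled circles use all ciliated barcodes, open diamonds those of at most 50000 UMIs, and vertical bars the list medians. The dynein arm list lies highest, with a median of 2.69, and the tubulins are split.

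Tubulin genes, the building blocks of the doublets, went both ways. Tuba1a was at 2830 CPM in mutant and 546 CPM in control ciliated barcodes, and Tubb4b, the main beta tubulin of cilia, at 5604 and 1726 CPM. Their log2 differences of 2.35 and 1.69 were 1.115 and 0.48 in barcodes of at most 50000 UMIs. The lowest values of all lists were also tubulins: Tubb5 at 74.1 CPM in the mutant and 638 CPM in the control library (log2 difference -2.95), Tubb2b at -1.61 and Tubb2a at -0.71. Up to 50000 UMIs Tubb5 was at -1.63 and Tubb2a at -0.47, and Tubb2b had too few UMIs to be tested. Tubulin genes have close paralogs, and the split of reads between them was not tested. In other epithelium the 6 tubulins tested had a median log2 difference of -2.01. At least 2-fold lower in the mutant library there were 4, where 7.25% of genes were. Tubb5 was at -3.79, Tubb2b at -2.12 and Tubb2a at -0.60 there, so the lower values of these genes were not limited to ciliated barcodes. Tuba1b at -2.31 and Tubb4b at -1.91 were also lower there, but had log2 differences of 0.76 and 1.69 in ciliated barcodes.

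Rat features were found by symbol for 37 of 38 members, and Foxj1 was not matched. Over all barcodes they held 272 UMIs in the mutant and 2478 in the control library, of 1856112 and 18910529 rat UMIs. The same gate was passed by 0 of 79 rat barcodes in the mutant library, which allows a share of up to 3.80% by the approximate bound of 3 divided by the number of barcodes. In the control library 3 of 725 rat barcodes passed it. The 3 control ones held 202 member UMIs, of which 53 were Ccno, 43 Tppp3, 18 Dynlrb2, 14 Mlf1 and 10 Zmynd10, while rat Dnah5, Dnah9, Dnah12, Spag16, Spag17 and Sntn had 0. Rat Tmem212, Ccdc153, Sntn, Meig1, Pifo, Lrrc23, Dnah5, Rsph4a and Tekt4 had 0 UMIs in both libraries over all barcodes, so a rat ciliated barcode could be found only through the other gate genes.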

How the data were processed

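The deposited values were the authors' UMI counts per gene and barcode, whole numbers with no scaling, from 10x 3' v3 libraries. Cell Ranger 7.0.1 made the mutant and 6.0.1 the control matrix, per the file headers. Seurat 4.3 and builds mm10 and rn6 were named per the submitters' processing notes. The sources used here do not give the intron setting of either run.

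Here, barcodes with at least 500 genes and at most 20% mitochondrial UMIs were kept, and called mouse at 90% or more mouse UMIs, rat at 10% or less. Scrublet scores of 0.2 or more, by Scanpy 1.11.5, removed 356 mutant and 154 control mouse barcodes as doublets. Mouse barcodes of both libraries were clustered together (2000 variable genes, 30 components, 15 neighbours, Leiden resolution 1, seed 1), and clusters took a class from marker lists. UMIs were summed per library and group. Levels were CPM over mouse UMIs, and log2 differences used 10 CPM added. Genes with at least 20 UMIs in the compared groups together were tested against a 2-fold size rule. A check of the rule on simulated counts held counting error only, with changes larger than 2-fold in well-covered genes. It does not cover differences between libraries or barcodes. Intron lengths came from GENCODE vM21 (mm10), as gene span less exons.

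Depth was 103627303 UMIs in the mutant and 123047433 in the control library. All intervals are 95%, exact, and cover counting error only. With 1 library per group no p-value was computed, since barcodes are not replicates. All members were named. Of the other cilia genes, the 3 highest and 3 lowest log2 differences were named by rule, and Tuba1a, Tubb4b, Deup1, Myb, Plk4, Ulk4, Cdc20b, Ccdc78 and Trp73 were named after their values were seen. The members, lists and alternatives were chosen with earlier results of these data known, and the limit of 50000 UMIs and the Tmem212 combinations after seeing the barcodes. Mixed-species barcodes were left out.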

Additional observations from a re-analysis of the deposited data

How the results depend on the processing

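No paired analysis was possible because each group had 1 library, which also left no library to leave out. Over 23 alternatives the members' median log2 difference, mutant minus control, ran from 0.493 to 2.499, and 9 to 30 of 33 were at least 2-fold higher. Among the alternatives, shares of all genes called were computed only relative to like intron length and with the limit of 50000 UMIs, alone and together. Of 759 values of members past 2-fold, 751 kept their sign; 8 did not, and the cause was not tested. They came with the limit of 50000 UMIs, chosen after seeing the data. Under it the control library kept 20 ciliated barcodes (2.153% of epithelium) and the median was 0.701. There 14 members were at least 2-fold higher (15.1% of genes) and 1 lower (7.07%). Rsph1 had -0.1827, Rsph9 -0.2462, Tekt4 -0.06793, Pifo -0.2108 and Meig1 -0.4114. Relative to like intron length as well, the median was 0.493, 9 were higher (9.45% of genes), and Rsph1 had -0.2376, Rsph9 -0.3011 and Meig1 -0.1936. With a Tmem212 UMI required, also chosen after seeing the data, 21 control barcodes were left (2.258%) and 1 member was lower. A gate of 5 UMIs gave a control share of 6.716%, and the same gate after thinning to 3000 UMIs 25 control barcodes (2.941%) and a median of 1.441. The mean of barcodes gave 1.324, with 1 lower. Ciliated minus other epithelium was 8.001 in the mutant and 5.33 in the control library with 1 CPM added, and 3.238 and 1.309 with 50 CPM. Over the 23 alternatives Ccno was below 0 in 23, Mcidas in 19, Zmynd10 in 7 and Foxj1 in 1. Control levels rest on few UMIs for some long genes, 66 for Dnah11 and 75 for Cfap43, and on 44 barcodes of 1 library.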
